A study of Mus musculus with 4 samples.

Results

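The genes described here are 9 members of the route that runs from the double-stranded RNA receptor TLR3 to the type I interferon receptor and its kinases: Tlr3, Ticam1, Tbk1, Irf3, Tyk2, Jak1, Ifnar1, Ifnar2 and Stat3. Every probe set that the array's annotation assigns to one of these symbols alone was taken, with no selection on its signal. That gave 23 probe sets of 9 genes, out of 34945 probe sets of 18193 genes. A probe set is a group of short probes on the array that together give 1 signal for a transcript. Ticam1 had 1 probe set, and the other 8 genes had 2 to 4.

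The arrays carried RNA from dendritic cells grown out of bone marrow (BMDC) of male C57BL/6 mice aged 6 to 8 weeks, with 1 array for each of 4 culture conditions. All cells had been grown for 7 days with 500 U/ml GM-CSF, under which marrow progenitors become dendritic cells, and all were sorted by flow cytometry after staining for the costimulatory protein CD80 with a fluorescein-labelled antibody. The control cells were not exposed to 1D8 cells. The live coculture held 1 tumour cell to 5 BMDC, and the tumour cells were of the 1D8 line, which is derived from mouse ovarian surface epithelium. The 1D8 cells of the irradiated coculture were given 50 Gy, and the conditioned medium culture contained 25% (v/v) 1D8 supernatant. How many mice supplied each culture and how long tumour cells and BMDC were together is not given in the sources used here. Each condition is 1 biological sample, so no value has a replicate error, no test was run, and "higher" and "lower" describe these 4 arrays. All 3 comparisons with the control use the same control array, so an error of that array enters each of them.

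TLR3 sits in endosomes and binds double-stranded RNA. It signals through the adaptor TRIF, the product of Ticam1, to the kinase TBK1, which phosphorylates the transcription factor IRF3, and IRF3 switches on the gene for interferon beta. Secreted type I interferon binds a receptor made of the chains IFNAR1 and IFNAR2, to which the kinases TYK2 and JAK1 are attached, and these phosphorylate STAT proteins. Interferon response elements are made of spaced GAAA repeats, and STAT3 homodimers bind TTCNNNGAA. The title of the series names TLR3, SOCS3 and TYK2, and the comparison asks how these components stood in dendritic cells exposed to tumour cells. The arrays measure RNA, so phosphorylation and the binding of SOCS3 to TYK2 were not measured.

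Start regions of all 9 genes were found in the RefSeq table of build GRCm38.p6, each covering 250 bases before to 50 bases after the annotated start and written in the direction of the gene. Of 32851 such regions, 8.30% contained TTCNNNGAA, which reads the same on both strands, 23.9% contained the IRF core AANNGAAA on either strand, and 3.44% contained a GAAA repeated after 2 bases on either strand. Among the 9 genes these motifs were present in 2, 1 and 0 regions. The 3 regions with a match are printed because they show what the receptor genes carry at their starts. That of Stat2, which is not a member, is printed beside them as a listed gene with the GAAA repeat, whose signal was highest with conditioned medium. How many listed genes carry the repeat was not counted, and its part in that signal was not tested. The region of Socs3, also searched, contained TTCNNNGAA and is not printed. Capitals mark the matches.
Tlr3: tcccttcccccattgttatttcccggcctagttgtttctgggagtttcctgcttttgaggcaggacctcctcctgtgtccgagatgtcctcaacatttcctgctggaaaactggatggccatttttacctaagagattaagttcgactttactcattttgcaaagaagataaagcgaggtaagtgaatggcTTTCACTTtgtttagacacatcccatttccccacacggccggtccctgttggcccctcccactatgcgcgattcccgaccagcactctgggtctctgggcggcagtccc
Ifnar1: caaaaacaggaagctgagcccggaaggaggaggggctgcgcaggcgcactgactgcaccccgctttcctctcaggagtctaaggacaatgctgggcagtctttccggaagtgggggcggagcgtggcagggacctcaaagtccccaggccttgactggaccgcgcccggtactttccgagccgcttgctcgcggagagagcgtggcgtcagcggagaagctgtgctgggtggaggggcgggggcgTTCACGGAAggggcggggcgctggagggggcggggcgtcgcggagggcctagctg
Ifnar2: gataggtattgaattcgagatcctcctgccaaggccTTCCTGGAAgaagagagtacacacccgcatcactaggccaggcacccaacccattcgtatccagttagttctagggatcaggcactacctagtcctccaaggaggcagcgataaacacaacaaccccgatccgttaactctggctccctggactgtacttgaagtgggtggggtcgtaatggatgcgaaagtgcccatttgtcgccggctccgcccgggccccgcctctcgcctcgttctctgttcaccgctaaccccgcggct
Stat2: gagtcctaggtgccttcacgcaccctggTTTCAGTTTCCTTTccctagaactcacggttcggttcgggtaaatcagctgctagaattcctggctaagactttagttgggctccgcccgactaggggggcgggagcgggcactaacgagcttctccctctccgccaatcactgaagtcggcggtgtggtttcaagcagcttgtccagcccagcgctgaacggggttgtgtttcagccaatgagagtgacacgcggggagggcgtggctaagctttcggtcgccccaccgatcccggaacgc
The Tlr3 region is chr8:45410331-45410630 on the minus strand, and its AANNGAAA match, on the opposite strand, begins 59 bases before the start. The Ifnar1 region is chr16:91484965-91485264 on the plus strand, and its TTCNNNGAA begins 5 bases before the start and crosses it. The Ifnar2 region, chr16:91372533-91372832 on the plus strand, has TTCNNNGAA 214 bases before the start. In Stat2, chr10:128270248-128270547 on the plus strand, the GAAA repeat lies on the opposite strand 222 bases before the start and overlaps AANNGAAA matches at 222 and 216 bases. The match is a description of letters and does not show that a factor binds there.

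At its brightest probe set, which stands for a gene in the counts below, none of the 9 genes reached a 2-fold difference in any of the 6 comparisons among the 4 arrays. Signals under 44.3, the 50th percentile of all signals, were raised to that floor before ratios were taken. Genes at least 2-fold apart from the control made up 5.60% of all genes with live tumour cells, 5.72% with irradiated tumour cells and 3.71% with conditioned medium. Between treated arrays the shares were 0.671% for irradiated against live coculture, 2.89% for live coculture against conditioned medium and 3.18% for irradiated coculture against conditioned medium. With shares this low, 0 of 9 is near the background. The widest gene-level differences from the control were Ifnar1 in the live coculture, 1.47-fold lower, Tlr3 in the irradiated coculture, 1.46-fold higher, and Ifnar2 with conditioned medium, 1.53-fold higher. Median log2 ratios of the 9 genes against the control were -0.11, -0.04 and 0.08 in live coculture, irradiated coculture and conditioned medium, against 0.00 over all genes in each.

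Single probe sets differed more. Among the 23, 1 was at least 2-fold higher and 1 at least 2-fold lower in the live coculture, and 1 was higher and 0 lower in the irradiated coculture and with conditioned medium. Over all probe sets of 1 gene, 6.57% differed at least 2-fold from the control with live tumour cells, 6.08% with irradiated tumour cells and 4.68% with conditioned medium. Because no replicate exists, the only yardstick within the data is the SD of the log2 ratio among probe sets of the same gene. It measures how far probe sets disagree on the same arrays. An error of a culture or array that these probe sets share does not enter it. The SD was 0.50, 0.46 and 0.45 for live coculture, irradiated coculture and conditioned medium against the control. It was 0.26 for irradiated against live coculture, and 0.31 and 0.30 for live and irradiated coculture against conditioned medium. Probe sets of a gene share the RNA and are not replicates, and by this yardstick most gene-level ratios below are not distinguishable from 1. A ratio larger than the SD is not thereby shown to exceed error.

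**Figure D1:**
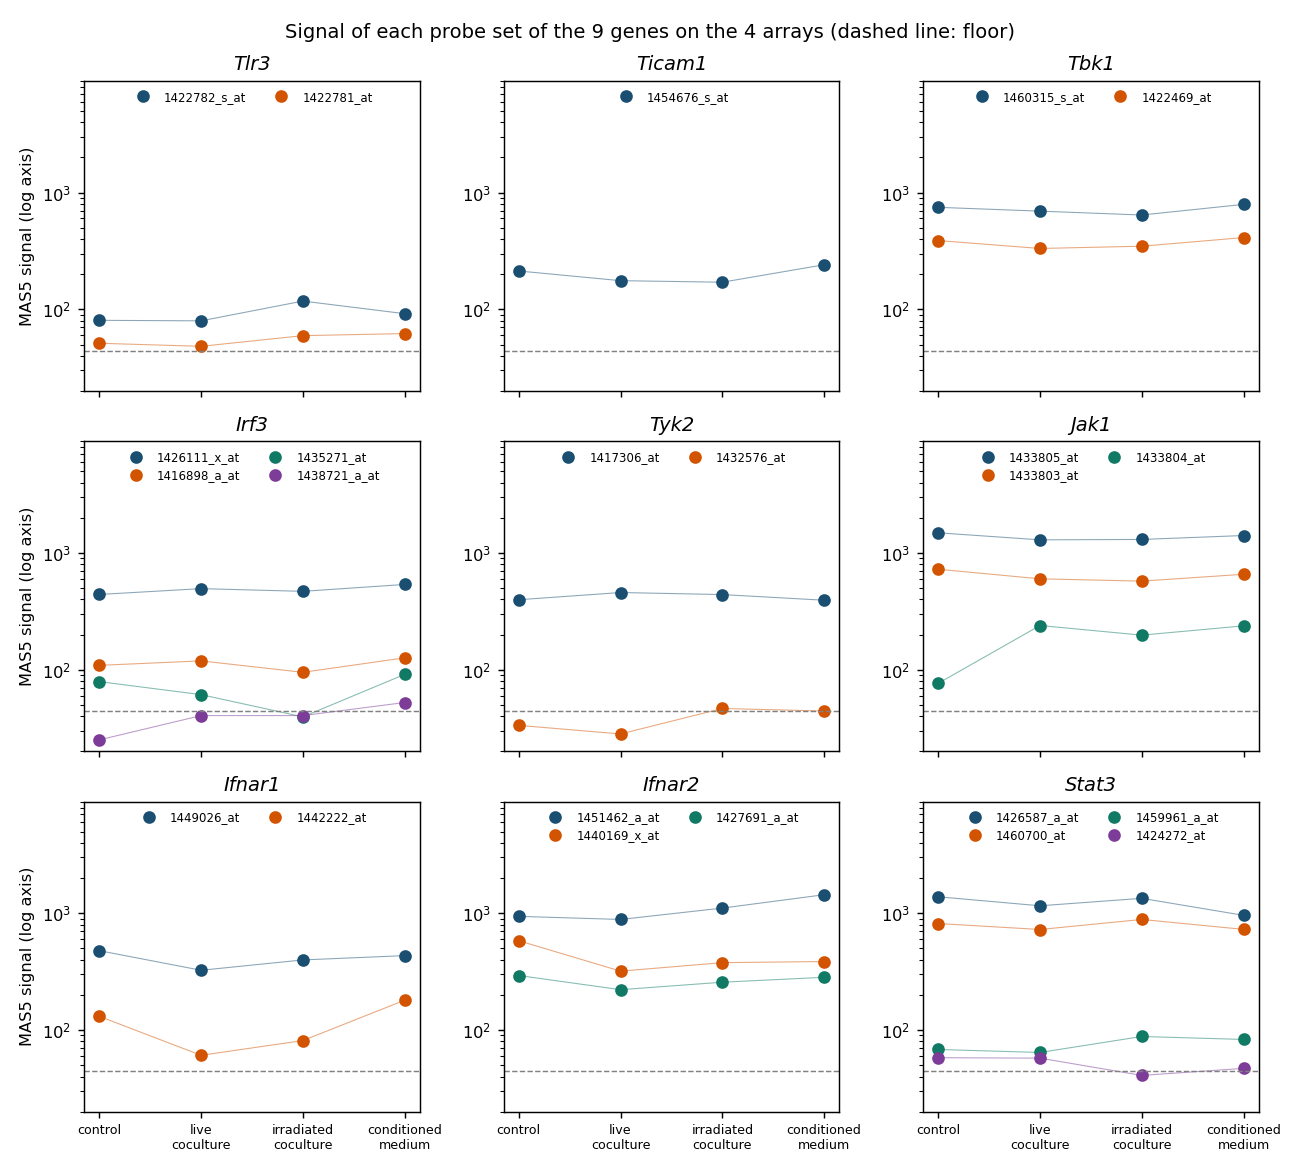
Signal (log axis, deposited MAS5 units) of every probe set of the 9 genes on the 4 arrays, 1 panel for each gene and 1 colour for each probe set, with the floor of 44.3 as a dashed line; lines only join the values of a probe set. The probe sets of Ifnar1 and Ifnar2 are all lowest in the live coculture, and 1 probe set of Jak1 reads 76.5 in the control and between 197.6 and 239.0 on the other arrays.

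The sorted cells carried dendritic cell markers on every array: 12 of 12 were above the floor, although Flt3 (45.5 to 73.2) and Zbtb46 (56.1 to 63.1) were close to it. Summed signals of these 12 markers were 24776.6 in control cells, 14843.2 and 15724.7 with live and irradiated tumour cells and 22528.3 with conditioned medium. The markers did not move together: in each coculture 8 were below the control and 4 above it. Cd80, the gene of the stained protein, read 85.5, 378.2, 325.8 and 201.3 in that order, and Cd86 read 149.1, 234.5, 339.6 and 222.0. The bright H2-Eb1 went the other way, with 4244.1, 1347.5, 1652.9 and 3527.6. These genes were named after their values were seen. Epithelial and mesothelial markers, which a tumour cell carried through the sort would bring, were above the floor for 3 of 12 in control cells, 9 and 10 with live and irradiated tumour cells and 5 with conditioned medium. Their summed signals were 445.1, 2881.1, 3557.9 and 794.7. The keratin gene Krt19 read 8.6, 569.7, 767.4 and 22.2, so it was under the floor in control cells and with conditioned medium. Macrophage markers, 6 of 6 above the floor on every array, summed to between 19736.0 and 23464.6, a range that hides opposite directions. Cd14, named after its values were seen, read 2258.3 in control cells, 5615.1 and 7822.5 with live and irradiated tumour cells and 2311.2 with conditioned medium. Log2 ratios to the control were below 0 for 4 of the 6 in each coculture and for 3 with conditioned medium. Neutrophil markers, with between 4 and 8 of 9 above the floor, summed to 7849.9, 3473.9, 4111.3 and 7802.0, but Mmp8 held most of that, and the other 8 summed to 2172.5, 838.5, 1009.7 and 900.5, lower on every treated array. Fibroblast markers summed to 4195.4 in the control and to between 7446.5 and 9111.8 on the treated arrays, and without Fn1, which held most of it, to 361.0, 688.6, 838.1 and 348.0, so that only the cocultures were above the control. These sums without the brightest gene were added after the data were seen. Mast cell and basophil markers summed to 1438.0 in control cells, 339.4 and 424.6 with live and irradiated tumour cells and 914.6 with conditioned medium, lowest in the cocultures. Of these 8 markers, 6, 4, 4 and 5 were above the floor in that order. Lymphocyte markers summed to 217.9, 99.6, 154.9 and 193.5 in that order. Only 2, 0, 1 and 2 of these 5 were above the floor, so the sums say little of lymphocytes. These cell markers differ between the same arrays as the signals below, and their part in the results was not tested. In sorted bulk cells, fewer cells of a type and less RNA per cell cannot be told apart.

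Tlr3, the sensor, gave dim but measurable signals, and both of its probe sets were lowest in the live coculture. Probe set 1422782_s_at read 80.6 in control cells, 79.8 and 117.8 with live and irradiated tumour cells and 91.9 with conditioned medium. It was thus highest in the irradiated coculture, 1.46-fold above the control and 1.48-fold above the live coculture. The second, 1422781_at, read 51.3, 48.3, 59.6 and 62.1 in the same order, which places conditioned medium slightly above the irradiated coculture. Irradiated against live coculture, the log2 ratios were 0.56 and 0.30, against a within-gene SD of 0.26 in that comparison. That SD holds no array error, and both ratios became 0.00 with the floor at the 75th percentile. With quantile normalization the ratio of the irradiated coculture to the control was 0.37 and 0.01 on the log2 scale for these probe sets. Control and live coculture were neighbours in the order of both probe sets, and their log2 ratios of -0.01 and -0.09 lie well inside the within-gene SD.

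Behind the sensor, all 7 probe sets of Ticam1, Tbk1 and Irf3 had their highest signal in the conditioned medium culture. Of the 21940 probe sets of 1 gene above the floor on any array, 27.0% were highest there. The 3 genes were grouped by their place in the route, and the direction was seen before the count was made. Against the control the 7 log2 ratios ran only from 0.08 to 0.28, within the within-gene SD of 0.45. After quantile normalization 6 of the 7, and after median centring 5 of the 7, were highest with conditioned medium. The direction against the cocultures held under both scalings. All 7 were lower in the live and in the irradiated coculture than with conditioned medium, as deposited and scaled. The log2 ratios ran from -0.58 to -0.09 for live and from -1.04 to -0.20 for irradiated coculture. Some of them lie within the within-gene SD of 0.31 and 0.30. With the floor at the 75th percentile, 1416898_a_at, 1435271_at and 1438721_a_at of Irf3 stood at 0.00 in both comparisons. Over all probe sets above the floor on both arrays, 51.1% were lower in the live and 54.6% in the irradiated coculture than with conditioned medium. Unlike these, 1438721_a_at was under the floor in both cocultures and 1435271_at in the irradiated coculture, so its ratio of -1.04 is a bound. The 7 probe sets come from 3 genes and the same arrays, so they are not independent readings.

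Ticam1, which encodes the adaptor TRIF, read 213.1 in control cells, 176.1 and 170.8 with live and irradiated tumour cells and 241.0 with conditioned medium at its only probe set. The cocultures lay below both other arrays, by 1.37-fold (live) and 1.41-fold (irradiated) against conditioned medium. Tbk1, the kinase downstream, read 747.2, 693.1, 642.3 and 791.6 at probe set 1460315_s_at and 388.1, 332.2, 347.3 and 411.8 at 1422469_at. Its probe sets stayed within 0.12 of each other in log2 ratio in every comparison with the control, and both placed the cocultures below the other cultures. Their log2 ratios to the control were -0.11 and -0.22 in the live coculture and -0.22 and -0.16 in the irradiated coculture.

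Irf3, the transcription factor at the end of this arm, was represented by 4 probe sets that did not all behave alike. The brightest, 1426111_x_at, read 440.6 in control cells, 494.3 and 468.6 with live and irradiated tumour cells and 536.8 with conditioned medium; the letter x marks probes that resemble other sequences as well. At 1416898_a_at the signals were 109.0, 119.0, 95.0 and 126.4. Those of 1435271_at were 79.1, 61.2, 39.5 and 91.2, of which the irradiated value was under the floor, so this probe set was at least 2.06-fold lower there than with conditioned medium. The bound fell to -0.97 on the log2 scale with quantile normalization and to 0.00 with a floor at the 75th percentile, either of which ends the 2-fold call. The last, 1438721_a_at, was under the floor on 3 arrays and read 52.4 with conditioned medium. Against the control, then, the first probe set was slightly higher in both cocultures and the third was lower in both.

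**Figure D2:**
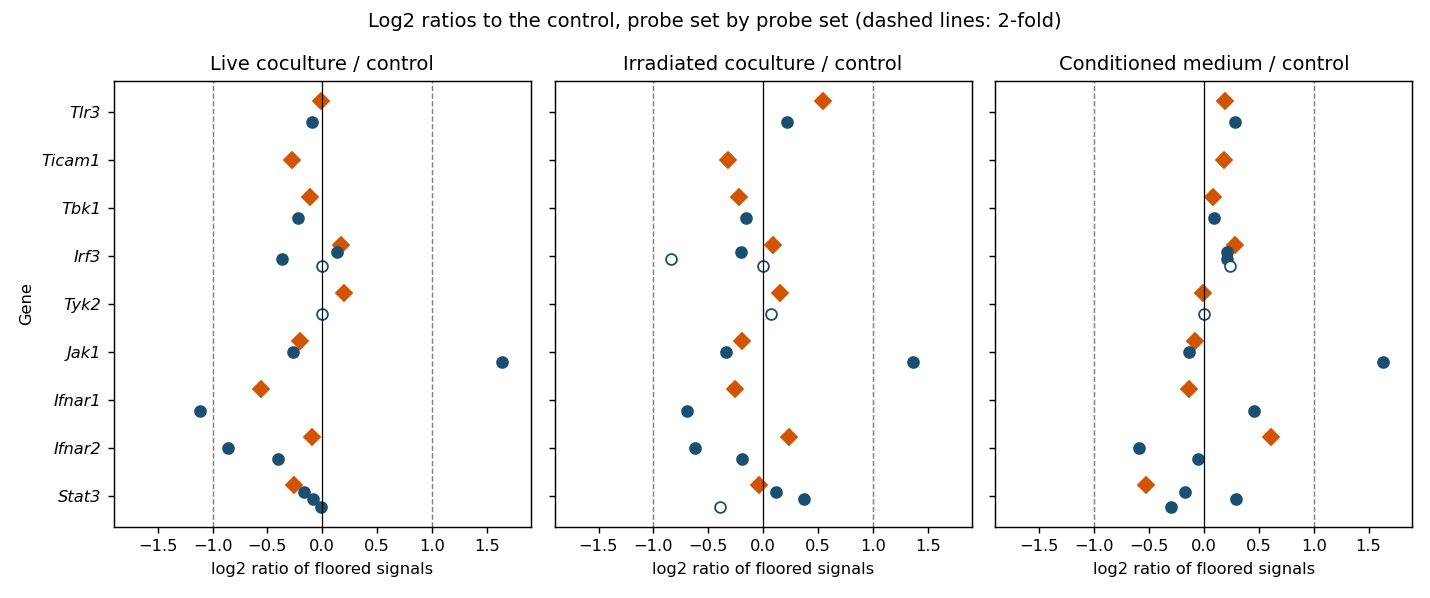
Log2 ratio to the control of each probe set of the 9 genes in live coculture, irradiated coculture and conditioned medium (1 panel each); orange diamonds are the brightest probe set of a gene, blue circles the others, open symbols have a signal at or under the floor, and dashed lines mark 2-fold. Every diamond lies inside the 2-fold lines, and the points outside them belong to Jak1 in all 3 panels and to Ifnar1 in the live coculture.

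The probe sets of both receptor chains read lower with live than with irradiated tumour cells, by ratios around the within-gene SD of 0.26. All 5 probe sets of Ifnar1 and Ifnar2 had their lowest signal in the live coculture, where 20.7% of the 21940 probe sets were lowest. After quantile normalization 4 of the 5 and after median centring all 5 were lowest there. They were lower there than in the irradiated coculture, with log2 ratios of irradiated to live of 0.21 to 0.42, and lower than with conditioned medium, with log2 ratios of live to conditioned medium of -1.57 to -0.27. Both directions held for all 5 after quantile normalization and median centring. The ratios of 0.21 at 1427691_a_at and 0.24 at 1440169_x_at are inside the SD. The largest, 0.42 at 1442222_at, became 0.00 with the floor at the 75th percentile, and its ratio to conditioned medium became -0.21. Against the control all 5 were also lower, from -1.11 to -0.09, but quantile normalization turned the smallest, the brightest Ifnar2 probe set, to 0.05. Over all probe sets above the floor on both arrays, 47.4% were higher in the irradiated than in the live coculture and 48.9% had a live coculture signal below that of the control. Neither the grouping of these chains nor the count was made before their values were seen, and the 5 probe sets come from 2 neighbouring genes and the same arrays, so they are not independent readings.

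Ifnar1, the chain that holds TYK2, read 477.8 in control cells, 324.9 and 398.2 with live and irradiated tumour cells and 433.5 with conditioned medium at its brighter probe set, 1449026_at. The live coculture was the lowest of the 4, 1.47-fold under the control. At 1442222_at the signals were 131.0, 60.8, 81.3 and 180.0, the widest change of any receptor probe set. This one was 2.15-fold lower than the control in the live coculture, 1.61-fold lower in the irradiated coculture and 1.37-fold higher with conditioned medium. The cocultures therefore stood 2.96-fold (live) and 2.21-fold (irradiated) below conditioned medium. All its signals were moderate or dim, and with a floor at the 75th percentile of signals, 155.6, the log2 ratios of both cocultures to the control became 0.00. The probe sets agreed that both cocultures were below the control, and they differed in sign for conditioned medium, -0.14 against 0.46.

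Ifnar2, the other chain, which binds interferon and holds JAK1, was bright, and its probe sets went separate ways against the control. At 1451462_a_at the signals were 939.8 in control cells, 884.3 and 1106.2 with live and irradiated tumour cells and 1439.3 with conditioned medium. Conditioned medium was thus highest, 1.53-fold above the control and 1.63-fold above the live coculture. At 1440169_x_at the control was the highest instead, with signals of 581.1, 319.3, 377.4 and 385.7, so that the treated arrays were 1.82-fold, 1.54-fold and 1.51-fold lower. At 1427691_a_at the signals were 292.9, 221.6, 256.7 and 282.8, again with the control highest and the live coculture lowest. With conditioned medium the outermost probe sets differed by 2.31-fold in their ratio to the control. Ifnar2 RNA can be spliced into forms with and without the membrane anchor; which probe set reads which form was not determined. The brightest and the x probe sets shared the order live, irradiated, conditioned medium among the treated arrays, and so did the third.

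Tyk2, the kinase named in the series title, was flat. Its measurable probe set, 1417306_at, read 397.2 in control cells, 457.8 and 439.7 with live and irradiated tumour cells and 393.4 with conditioned medium. Both cocultures were above the other arrays, by log2 ratios to the control of 0.20 and 0.15, and conditioned medium was at -0.01. These ratios are under the within-gene SD, and with 1 array for each condition the 4 levels cannot be ordered. The other probe set, 1432576_at, was above the floor on 1 array only, with signals of 33.4, 28.2, 46.6 and 44.3.

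Jak1, the partner kinase, showed the largest disagreement between probe sets of the 9 genes, although the annotation lists its 3 probe sets with the same accession. The brightest, 1433805_at, read 1484.8 in control cells, 1292.6 and 1302.6 with live and irradiated tumour cells and 1407.5 with conditioned medium. At 1433803_at the signals were 724.3, 599.6, 573.1 and 655.9. Both were slightly lower in every treated culture, by log2 ratios between -0.34 and -0.08. At 1433804_at, in contrast, the signals were 76.5, 239.0, 197.6 and 237.4, which put the control far under the others. That probe set was 3.12-fold higher in the live coculture, 2.58-fold in the irradiated coculture and 3.10-fold with conditioned medium, while among the 3 treated arrays it differed by no more than 1.21-fold. The log2 ratios stayed above 1 with quantile normalization (1.45, 1.21 and 1.45) and fell to 0.62, 0.34 and 0.61 with the floor at the 75th percentile, which ends the call. As the rise rests on 1 dim value of the shared control array, the 3 ratios are not separate observations.

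Stat3, the transcription factor at the far end, was bright in 2 of its 4 probe sets. The brightest, 1426587_a_at, read 1381.9 in control cells, 1157.3 and 1340.5 with live and irradiated tumour cells and 958.8 with conditioned medium, the last 1.44-fold below the control. At 1460700_at the signals were 815.9, 725.3, 884.1 and 727.0, a log2 ratio of only -0.17 with conditioned medium. Both put the live coculture and conditioned medium below the control, with the irradiated coculture within 0.12 of it in log2 ratio. Of the dim probe sets, 1459961_a_at read 68.2, 64.3, 88.1 and 83.1, and 1424272_at read 58.0, 57.5, 40.9 and 47.0, with its irradiated value under the floor. The 4 probe sets spanned 0.81 on the log2 scale with conditioned medium, from -0.53 to 0.29.

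Probe sets of the same gene were compared across the table to set these disagreements in scale. Among genes with at least 2 probe sets above the floor on both arrays, 21.7% had probe sets at least 2-fold apart in their ratio to the control with live tumour cells, 17.8% with irradiated tumour cells and 17.3% with conditioned medium. Of the 7 members with such probe sets, 1, 1 and 2 did: Jak1 in each, and Ifnar2 with conditioned medium. The median spread was 0.54, 0.41 and 0.60 in log2 ratio for the members and 0.55, 0.51 and 0.50 for all such genes, so as a group the members were ordinary. Jak1 stood at the edge, with spreads of 1.92, 1.71 and 1.78, larger than in 96.9%, 97.0% and 97.7% of these genes. Tbk1 had among the smallest, with 0.12, 0.06 and 0.00.

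**Figure D3:**
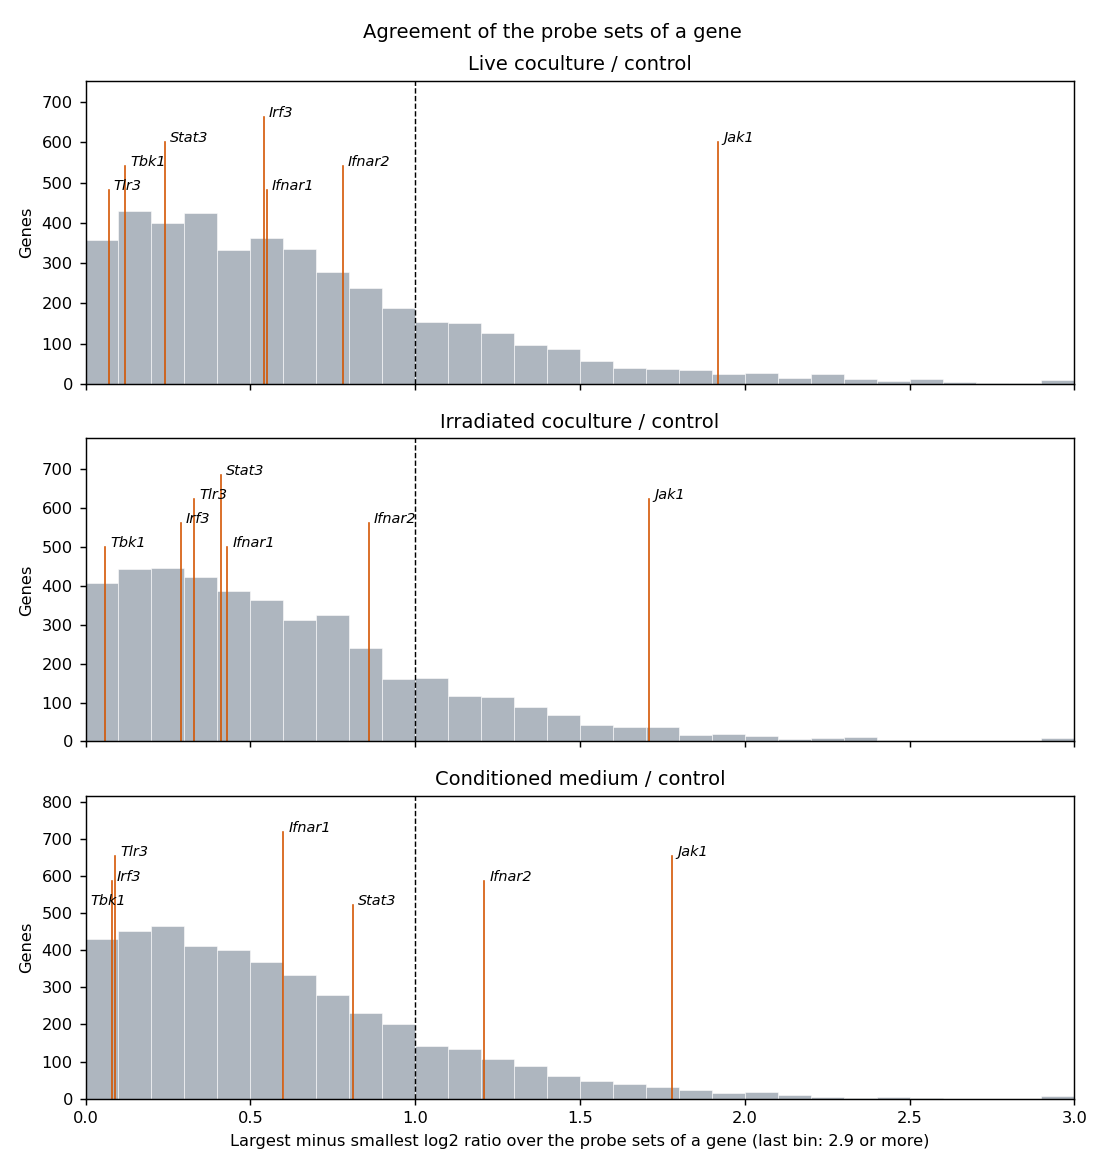
Histograms of the spread in log2 ratio to the control among probe sets of a gene, for genes with at least 2 probe sets above the floor on both arrays (1 panel for each treated culture; the last bin collects larger values); orange lines mark the members and the dashed line a spread of 1, or 2-fold. Most members lie in the bulk, while Jak1 lies in the right tail in each panel at 1.92, 1.71 and 1.78.

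The pattern of Ifnar2 over the 4 arrays, at its brightest probe set, was the widest among members measured above the floor. The genes nearest to it, out of 9846 above the floor on all arrays, were Paxx, Cracr2b and Atp8a1, at distances of 0.050, 0.051 and 0.055 between log2 signals centred on each gene's mean. Paxx, for example, read 116.6 in control cells, 111.9 and 135.9 with live and irradiated tumour cells and 173.6 with conditioned medium. In all, 13 genes lay within 0.1 and 102 within 0.2, and a likeness over 4 arrays is a description of shape only.

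Genes around these 9 in the route were followed in 7 lists, some of which share genes. The RNA sensors and adaptors outside the members, 17 measured genes, had 3 higher and 0 lower in the live coculture, 2 higher and 1 lower in the irradiated coculture, and 2 higher and 0 lower with conditioned medium, at medians of 0.01, 0.25 and 0.30. With probe sets of a gene averaged, 0 were higher and 0 lower in either coculture, while 2 were still higher with conditioned medium. Over all genes 3.36% were at least 2-fold higher and 2.23% lower in the live coculture, 3.47% and 2.25% in the irradiated coculture, and 2.30% and 1.41% with conditioned medium. After quantile normalization these splits were 2.63% and 2.65%, 2.91% and 2.58%, and 1.56% and 1.87%. Irf7, the interferon-inducible factor that amplifies interferon production, read 287.3, 268.7, 290.8 and 941.6 in the order used above, which is 3.28-fold above the control with conditioned medium and level in the cocultures. Tlr4, the receptor for lipopolysaccharide, read 421.6, 947.4, 980.4 and 613.5, 2.25-fold and 2.33-fold higher in the cocultures. Tank, a scaffold that binds TBK1, read 340.4, 700.1, 645.8 and 556.5. Traf6, a ubiquitin ligase used by Toll-like receptors, was 2.61-fold, 2.87-fold and 2.27-fold higher at its brightest probe set, and another probe set of it gave log2 ratios of only -0.00, 0.01 and -0.23. The lower gene was Tlr7, an endosomal sensor of single-stranded RNA, which read 652.6, 358.7, 318.9 and 613.1; it is named because it was the lower one.

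Interferon genes and the receptor chains of types II and III, 10 measured genes, had 0 higher and 0 lower in each treated culture. This says little of the interferons themselves: 3 of the 10 genes (Ifna2, Ifna4 and Ifna5) were under the floor on every array and 4 (Ifnb1, Ifna1, Ifnab and Ifnlr1) on some, so the counts and the medians of 0.00 are set by the floor. The 3 above it on all arrays were Ifngr1, Ifngr2 and Il10rb, all receptor chains; Ifngr1 read 601.2, 708.5, 1038.8 and 1073.4. Other receptors that use TYK2 or JAK1, also 10 measured, had 0 higher and 1 lower in the live coculture, 4 higher and 1 lower in the irradiated coculture, and 1 higher and 0 lower with conditioned medium. Csf3r, the receptor for G-CSF and a gene of the neutrophil lineage, was the lower one, with signals of 349.6, 131.8, 126.8 and 287.1. The neutrophil markers given above were also lower in both cocultures, and their part in this difference was not tested. Il13ra1, a chain of the IL-4 and IL-13 receptor, read 182.4, 360.9, 403.0 and 264.2, and Il12rb2, a chain of the IL-12 receptor, read 51.9, 88.3, 118.3 and 59.0. Il4ra and Osmr, named after their values were seen, were the others that passed 2-fold in the irradiated coculture, with log2 ratios of 1.06 and 1.04, the latter a bound. With probe sets averaged, the counts were 1 higher and 1 lower, 2 and 1, and 0 and 0. Lifr, the receptor of leukaemia inhibitory factor, was the higher gene with conditioned medium at 61.8, 53.5, 77.3 and 132.5. Of the other kinases and STAT proteins, 8 measured, 0 were higher and 1 lower in each coculture, and 1 higher and 0 lower with conditioned medium. The lower gene was Stat5a, which read 312.9, 141.7, 118.6 and 225.1, although another probe set of it gave log2 ratios of 0.46, 0.23 and 0.90. The higher one was Stat2, a transducer of type I interferon signals whose start region is printed above, at 153.4, 149.3, 176.2 and 456.8, or 2.98-fold above the control. A further Stat2 probe set gave log2 ratios of -1.22, -0.83 and 1.19, against -0.04, 0.20 and 1.57 at the brightest. Both were thus more than 2-fold higher with conditioned medium. In the live coculture the further one was more than 2-fold lower while the brightest was level. With probe sets averaged, 0 genes of this list were lower in either coculture.

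Negative regulators, 21 measured, had 3 higher and 1 lower in the live coculture, 4 higher and 0 lower in the irradiated coculture, and 0 in either direction with conditioned medium. Their medians were 0.02, 0.00 and 0.00, and 8, 9 and 9 of the 21 had a ratio below the control. Socs3, the inhibitor named in the title, read 399.9 in control cells, 953.9 and 1486.3 with live and irradiated tumour cells and 705.7 with conditioned medium. It was highest in the irradiated coculture at 3.72-fold, against 2.39-fold in the live coculture and 1.76-fold with conditioned medium, while Tyk2 in the same cultures stayed within 0.20 of the control in log2 ratio. Socs2 read 275.6, 636.6, 772.1 and 293.2, and Cish, a further member of this family, read 300.2, 591.1, 853.0 and 335.5. Dusp1, a phosphatase of MAP kinases, read 1164.5, 5885.6, 6309.2 and 1455.8, which is 5.05-fold and 5.42-fold higher in the cocultures. The lower gene in the live coculture was Usp18, an inhibitor that binds IFNAR2 and is itself induced by interferon, at 336.8, 160.3, 183.5 and 549.5; it is also on the interferon-stimulated list and is named as the only lower one. At their brightest probe sets, Socs3, Socs2, Cish and Dusp1 were all closer to the control with conditioned medium than in either coculture.

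Interferon-stimulated genes and STAT3-induced genes split between conditioned medium and coculture. Of 18 measured interferon-stimulated genes, 0 were higher and 2 lower in the live coculture, 0 higher and 2 lower in the irradiated coculture, and 6 higher and 0 lower with conditioned medium, with medians of -0.53, -0.37 and 0.61. The count of lower genes in the live coculture was 4 after quantile normalization and 1 when probe sets were averaged, and with the floor at the 75th percentile the medians shrank to -0.06, 0.00 and 0.42. Ifit2, which binds viral RNA, read 66.2, 51.9, 53.9 and 345.3, 5.22-fold higher with conditioned medium. Oasl2, of the oligoadenylate synthetase family, read 291.1, 164.0, 199.8 and 743.5, and Rsad2, which encodes the antiviral protein viperin, read 399.6, 150.9, 178.1 and 457.8. In both, the cocultures lay below and conditioned medium above the control. Ifnar1 showed this order at 1442222_at but not at its brighter probe set, 1449026_at, where the log2 ratio with conditioned medium was -0.14. A link between the receptor and these genes was not tested. Of 20 measured STAT3-induced genes, 6 were higher and 1 lower in the live coculture, 8 higher and 1 lower in the irradiated coculture, and 1 higher and 2 lower with conditioned medium, with medians of 0.42, 0.64 and 0.07. With probe sets averaged, 8, 10 and 3 were higher. The lower genes were S100a9 in each culture and S100a8 with conditioned medium, which also stand on the neutrophil list and are named as the lower ones. Arg1, which breaks down arginine, read 427.2, 8116.8, 8842.7 and 5847.3, and was 13.69-fold higher even with conditioned medium. Nfil3, a transcription factor, read 125.6, 649.3, 799.6 and 161.2. Vegfa, the angiogenic growth factor, read 453.6, 1705.9, 2504.1 and 806.6, and Myc, the growth regulator, read 101.6, 536.0, 437.7 and 86.2. Stat3 RNA itself was not higher than the control at its brightest probe set in any treated culture, as deposited. In the irradiated coculture its log2 ratio of -0.04 became 0.07 with quantile normalization. The other Stat3 probe sets gave 0.12, 0.37 and -0.39 there as deposited, the last a bound. Many of the STAT3-induced genes answer to other factors too, and the epithelial markers given above were also higher in the cocultures; their part in these values was not tested.

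**Figure D4:**
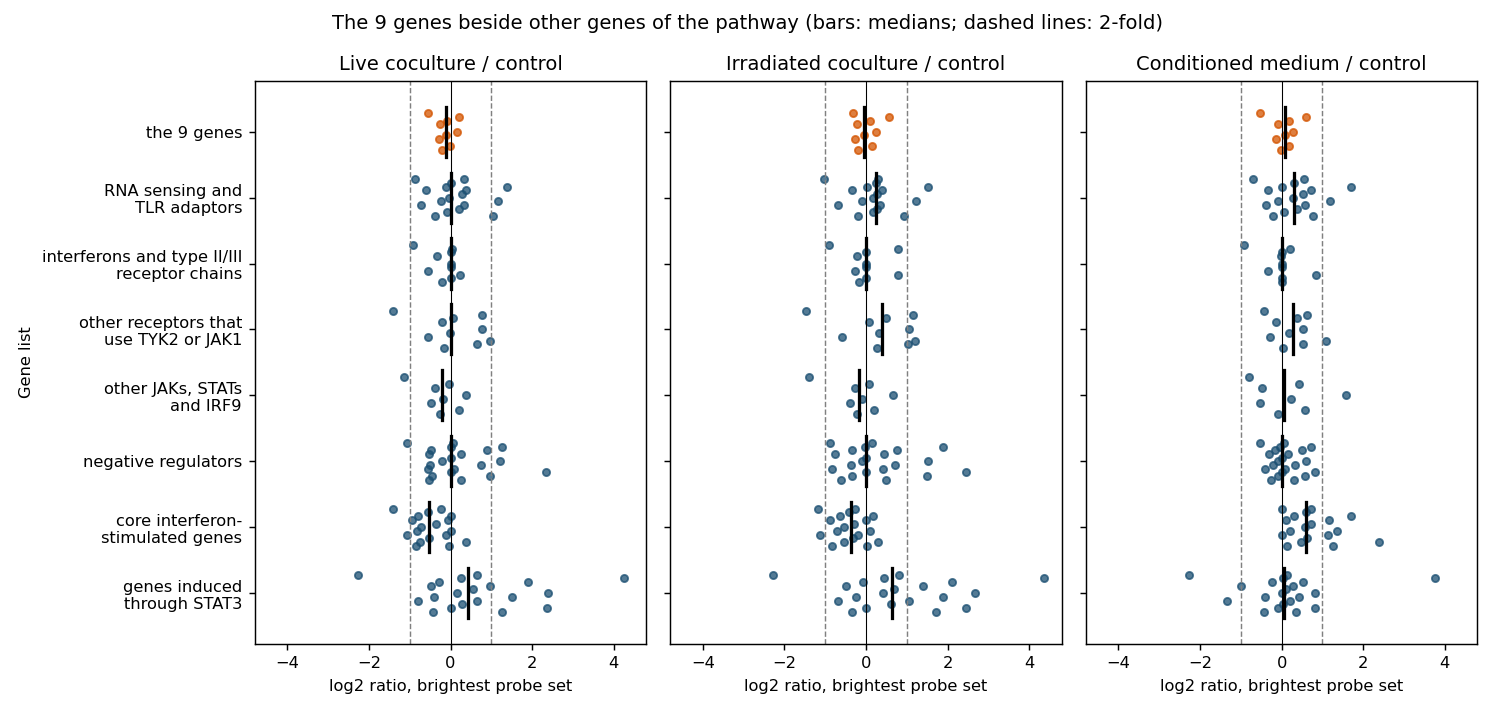
Log2 ratio to the control at the brightest probe set for the 9 genes and the genes of 7 lists in live coculture, irradiated coculture and conditioned medium; each point is a gene and each bar a median. The 9 genes lie between -0.56 and 0.61, while the interferon-stimulated list has its medians at -0.53 and -0.37 in the cocultures and 0.61 with conditioned medium.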

How the data were processed

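RNA went through 1 amplification round with an oligo-dT T7 primer and hybridized to Affymetrix mouse arrays, per the labels' protocols. The deposited values are 1 linear intensity per probe set, made by the authors with GCOS 1.4 and MAS5, per the submitters' processing notes. The scaling target is not given in the sources used here. MAS5 subtracts mismatch signal, so ratios of dim probe sets are noisy.

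Of 45101 probe sets, 64 controls, 932 with several genes and 9160 without a gene were left out, using the platform annotation; 34741 of the others matched RefSeq (GRCm38.p6) through Entrez identifiers and 0 symbols were replaced. Signals were used as deposited, raised to a floor of 44.3 (50th percentile over the 4 arrays), and log2 ratios were counted at 2-fold. A gene was represented by its brightest probe set (mean log2 signal). A ratio with the dimmer signal at the floor is a bound. Array number limits the precision, and no test was possible.

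All member probe sets are named; from each list, up to 4 genes with the largest log2 ratio among those at least 2-fold from the control on any treated array; and the 3 genes nearest to the member with the widest range. Listed genes without a probe set of their own are not analysed here. The members and lists were chosen with earlier results of these data known. Alternatives were floors at the 25th and 75th percentiles, quantile normalization, median centring, averaging or restricting probe sets, and a 1.5-fold threshold. Python 3.11.15, numpy 2.4.6, pandas 2.3.3 and matplotlib 3.10.9 were used, and the scripts were tested on simulated data.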

Additional observations from a re-analysis of the deposited data

How the results depend on the processing

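Genes at least 2-fold apart numbered 1018, 1041 and 675 in live coculture, irradiated coculture and conditioned medium against the control, 122 for irradiated against live coculture, and 526 and 579 for live and irradiated coculture against conditioned medium. With a floor at the 25th percentile (12.9) these counts were 2245, 2213, 1686, 1064, 1571 and 1626, and with one at the 75th percentile (155.6) they were 513, 525, 307, 25, 241 and 263. At 1.5-fold they were 3090, 3051, 2606, 800, 1942 and 1951. Averaging probe sets gave 61 for irradiated against live coculture. None of the 9 genes was counted at 2-fold; at 1.5-fold 1 was, Ifnar2, with conditioned medium against the control and in live coculture against conditioned medium, and with plain probe sets alone, which 7 members have, 1 was, Irf3, in irradiated coculture against conditioned medium. No 2-fold call changed direction. Smaller ratios did change sign: against the control, quantile normalization turned 2, 1 and 3 of the 23 member probe sets in live coculture, irradiated coculture and conditioned medium, the largest at 0.21 on the log2 scale, and median centring turned 0, 0 and 2. Lower genes outnumbered higher ones after median centring in the live coculture (2.69% higher, 3.07% lower) and with conditioned medium (1.65% and 2.24%), the opposite of the split as deposited. Log2 ratios of member probe sets were recomputed under the other floors and scalings. Of these, 523 kept their call and, where under 2-fold, shifted by no more than the within-gene SD. Another 19 stayed under 2-fold but shifted by more than that SD, 2 gained the 2-fold call and 8 lost it. Median centring moved the median of genes above the floor by -0.12 in the live coculture and -0.11 with conditioned medium, which is as large as many ratios of the 9 genes. The counts of probe sets by their highest array were added after the values were seen. No paired analysis was possible because each condition has 1 array, and for the same reason no replicate could be left out. Signals near the floor limit what can be said of Tlr3, of 1435271_at and 1438721_a_at of Irf3, of 1432576_at of Tyk2 and of 1424272_at of Stat3.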

Other observations

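Genes beside the members on the chromosome, in RefSeq order of GRCm38.p6, were read at their brightest probe sets. Chromosome 16 holds a run of receptor genes, Ifnar2, Il10rb, Ifnar1 and Ifngr2. Il10rb, the shared chain of the IL-10 and type III interferon receptors, read 1838.2 in control cells, 1590.1 and 1590.2 with live and irradiated tumour cells and 1831.8 with conditioned medium. Ifngr2, a chain of the interferon gamma receptor, read 390.6, 268.4, 326.0 and 447.3, lowest in the live coculture and highest with conditioned medium, while Il10rb was highest in the control and level between the cocultures. Another Ifngr2 probe set gave log2 ratios to the control of -0.18, -0.08 and -0.04, so there conditioned medium was not above the control. Another Il10rb probe set gave log2 ratios to the control of -1.39, -0.55 and -0.08. The next gene, Tmem50b, fell further in the cocultures, with 1266.6, 367.6, 390.4 and 947.7.

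The gene next to Jak1 is Ak4, a mitochondrial adenylate kinase, which read 54.1, 565.0, 727.3 and 97.2, while the brightest Jak1 probe set stayed within 0.20 of the control in log2 ratio. Beside Stat3, Stat5b read 298.1, 342.9, 315.3 and 445.5, and Stat5a was lower in both cocultures at its brightest probe set, as given above. Another Stat5b probe set gave log2 ratios to the control of 0.78, 1.25 and 1.17. Atp6v0a1, a subunit of the proton pump of lysosomes, read 950.7, 486.4, 400.9 and 493.3 and lies on the other side of Stat3. Ak4, Tmem50b and Atp6v0a1 were singled out after their values were seen.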
